A study of Mus musculus with 12 samples.

Results

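The nuclear genes for the subunits of the mitochondrial respiratory chain and of ATP synthase were examined in ribosome-bound RNA of spinal cord neurons. They were chosen by gene type and symbol: protein-coding genes named as Nduf subunits, Sdha to Sdhd, Uqcr genes, Cyc1, Cycs, Cox4 to Cox8 genes and Atp5 genes. The rule gave 86 members among 40912 gene IDs, and 84 of the 86 were among the 15905 genes with enough reads to be tested; Cox7b2 and Cox8c were not. Spinal cord RNA came from mice at postnatal day 21 of 2 bacTRAP lines, in which an EGFP-tagged ribosomal protein L10a is made under regulatory sequences of a chosen gene, so that an antibody to EGFP pulls down the ribosomes of the cells that use it. The groups were TRAP_Chat, the pulldown from Tg(Chat-EGFP/Rpl10a)DW167Htz, and PreIP_Chat, the RNA of the same line before the pulldown; TRAP_Snap25, the pulldown from Tg(Snap25-EGFP/Rpl10a)JD362Jdd, and PreIP_Snap25, its input. Each group held 3 libraries, numbered 1 to 3. Chat, for choline acetyltransferase, marks motor neurons and other cholinergic cells, and Snap25 marks neurons in general; the study set motor neurons against all neurons. All 4 groups carry a transgene, and the labels do not say whether the libraries of a group came from separate animals, so the p-values measure the spread between libraries, which may be technical.

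The respiratory chain passes electrons from NADH (complex I) and succinate (complex II) through complex III and the carrier cytochrome c to oxygen (complex IV), and pumps protons whose return through ATP synthase (complex V) drives the making of ATP. Most of its subunits are encoded in the nucleus, made on cytosolic ribosomes and imported, while the remaining ones of complexes I, III, IV and V come from the mitochondrial genome. Neurons depend on this pathway for the ion gradients and vesicle cycling of signalling, and motor neurons also supply long axons.

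Many nuclear genes of the chain carry sites for the transcription factors NRF1 and GABPA near their starts. The windows below, from RefSeq on the GRCm38.p6 build, run from 250 bases before to 50 bases after the start of 1 subunit of each complex, all from the minus strand and written 5′ to 3′ on the strand of the gene. They are shown because these genes are described below and hold the core letters of at least 1 motif; capitals mark those letters, GCGCANGCGC for NRF1 and CCGGAAG for GABPA, on either strand. The regions are chr15:82354242-82354541 for Ndufa6 (complex I), chr9:50603800-50604099 for Sdhd (complex II), chr4:116075021-116075320 for Uqcrh (complex III), chr5:115348909-115349208 for Cox6a1 (complex IV) and chr5:108434350-108434649 for Atp5k (complex V).
Ndufa6: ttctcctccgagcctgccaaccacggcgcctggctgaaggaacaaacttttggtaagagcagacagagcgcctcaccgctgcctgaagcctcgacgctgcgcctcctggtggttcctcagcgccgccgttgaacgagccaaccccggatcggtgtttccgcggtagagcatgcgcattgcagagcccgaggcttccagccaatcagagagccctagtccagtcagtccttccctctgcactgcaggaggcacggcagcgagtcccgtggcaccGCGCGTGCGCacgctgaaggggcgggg
Sdhd: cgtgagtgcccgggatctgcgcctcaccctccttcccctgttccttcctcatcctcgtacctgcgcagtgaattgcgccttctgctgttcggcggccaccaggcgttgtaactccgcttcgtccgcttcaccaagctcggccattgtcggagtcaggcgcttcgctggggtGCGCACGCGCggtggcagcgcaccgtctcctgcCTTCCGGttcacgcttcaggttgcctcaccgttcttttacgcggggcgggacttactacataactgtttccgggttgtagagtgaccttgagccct
Uqcrh: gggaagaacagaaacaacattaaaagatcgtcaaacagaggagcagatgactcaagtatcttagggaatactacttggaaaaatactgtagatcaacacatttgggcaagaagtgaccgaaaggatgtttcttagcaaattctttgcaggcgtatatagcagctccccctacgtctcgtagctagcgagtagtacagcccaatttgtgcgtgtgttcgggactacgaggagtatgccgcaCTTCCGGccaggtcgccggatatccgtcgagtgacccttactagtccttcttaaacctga
Cox6a1: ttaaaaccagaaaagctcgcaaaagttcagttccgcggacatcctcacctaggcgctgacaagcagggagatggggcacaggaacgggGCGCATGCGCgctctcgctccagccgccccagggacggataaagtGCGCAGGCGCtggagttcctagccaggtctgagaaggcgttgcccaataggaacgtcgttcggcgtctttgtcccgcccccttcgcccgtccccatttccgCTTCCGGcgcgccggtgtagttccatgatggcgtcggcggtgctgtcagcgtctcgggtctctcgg
Atp5k: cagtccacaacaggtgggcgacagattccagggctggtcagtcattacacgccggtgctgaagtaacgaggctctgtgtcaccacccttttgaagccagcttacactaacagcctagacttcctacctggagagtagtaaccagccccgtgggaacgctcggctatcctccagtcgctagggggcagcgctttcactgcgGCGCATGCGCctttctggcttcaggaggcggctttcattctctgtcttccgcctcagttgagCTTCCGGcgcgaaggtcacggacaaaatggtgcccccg
A window was found for 67 of the 86 members. The NRF1 letters were present for 17 of the 67 members (25.4%) and for 5.14% of the 26958 other genes with a window. The GABPA letters were present for 16 of the 67 members (23.9%) and for 9.89% of the other genes. The other genes were all those with a window, whether tested here or not, so they were not matched to the members in expression. The motifs do not overlap in letters, and a match is a description of the sequence only.

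The 12 libraries held 10149346 to 20521699 counted reads. Levels are CPM, the reads of a gene scaled to the same library size throughout. The tagged cell type showed in its marker: Chat stood 7.18-fold higher in TRAP_Chat than in PreIP_Chat (log2 fold change 2.84 ± 0.30 SE, adjusted p = 1.61e-05), and all 8 motor neuron markers rose there. Snap25, high in every library, was 1.66-fold higher in TRAP_Snap25 than in PreIP_Snap25 (adjusted p = 0.0544), short of the threshold of 0.05. In the Snap25 line 1 of 8 general neuron markers rose, near the 9.69% of all tested genes that did, and 3 of the 8 motor neuron markers rose. In the Chat line 2 of the 8 general neuron markers rose, where 12.6% of all tested genes did. Rpl10a, the gene of the tagged ribosomal protein, was low and fell in the Chat line (log2 fold change -1.23, adjusted p = 0.0475), with -0.15 in the Snap25 line (adjusted p = 0.838). All 8 oligodendrocyte, 7 astrocyte and 7 microglia markers fell in both pulldowns; the summed oligodendrocyte markers ranged over 2153 to 5840.5 CPM in TRAP_Chat against 17032 to 22480.1 CPM in PreIP_Chat, and over 1694 to 5248 CPM in TRAP_Snap25 against 15987 to 21002 CPM in PreIP_Snap25. Mitochondrial ribosomal RNA took 0.303% to 6.67% of the reads of a library in TRAP_Chat, highest in library 1, against 23.2% to 26.2% in PreIP_Chat, and 0.209% to 0.68% in TRAP_Snap25, against 25.3% to 40.7% in PreIP_Snap25. Markers of red blood cells fell in both pulldowns (5 of 5 each), and of 5 vessel markers 0 fell in the Chat line and 2 in the Snap25 line. The part of these shifts in the values below was not tested. PreIP_Snap25 3 held more RNA of the members than the other inputs of its line, and TRAP_Chat 3 held less than the other pulldowns of its line.

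The nuclear subunits stood higher in the pulldown than in the input of both lines. Their summed level was 28420.0, 28020.0 and 21052 CPM in the TRAP_Chat libraries, against 14759, 12894 and 14029 CPM in the PreIP_Chat libraries, and 28044, 35042 and 34582 CPM in TRAP_Snap25, against 12656, 12561 and 21854 CPM in PreIP_Snap25. The groups did not overlap in either line, though PreIP_Snap25 3 lay above TRAP_Chat 3, a pulldown of the other line. In the Chat line 54 of the 84 tested members rose, 2 fell and 28 did not pass the threshold, where 12.6% of all tested genes rose and 14.3% fell; the median log2 fold change was 0.96 over the members and -0.06 over all tested genes. In the Snap25 line 64 rose, 1 fell and 19 did not pass, where 9.69% of all tested genes rose and 12.7% fell, with medians of 1.06 for the members and -0.00 for all genes. All 3 pulldown libraries lay above all 3 inputs for 69 members in the Chat line, where 21.8% of all tested genes did so, and for 59 in the Snap25 line, where 16.6% did. All pulldowns lay below all inputs for 3 members in the Chat line (Cox8b, Ndufa4l2 and Atp5g2), against 26.1% of all tested genes, and for 2 tested members in the Snap25 line (Cox6b2 and Ndufa4l2), against 21.4%. At an unadjusted p under 0.05 there were 66 members in the Chat line and 74 in the Snap25 line, where 39% and 35.3% of all tested genes were under it. In a whole-tissue input, fewer cells of a type and less RNA per cell cannot be told apart.

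**Figure D1:**
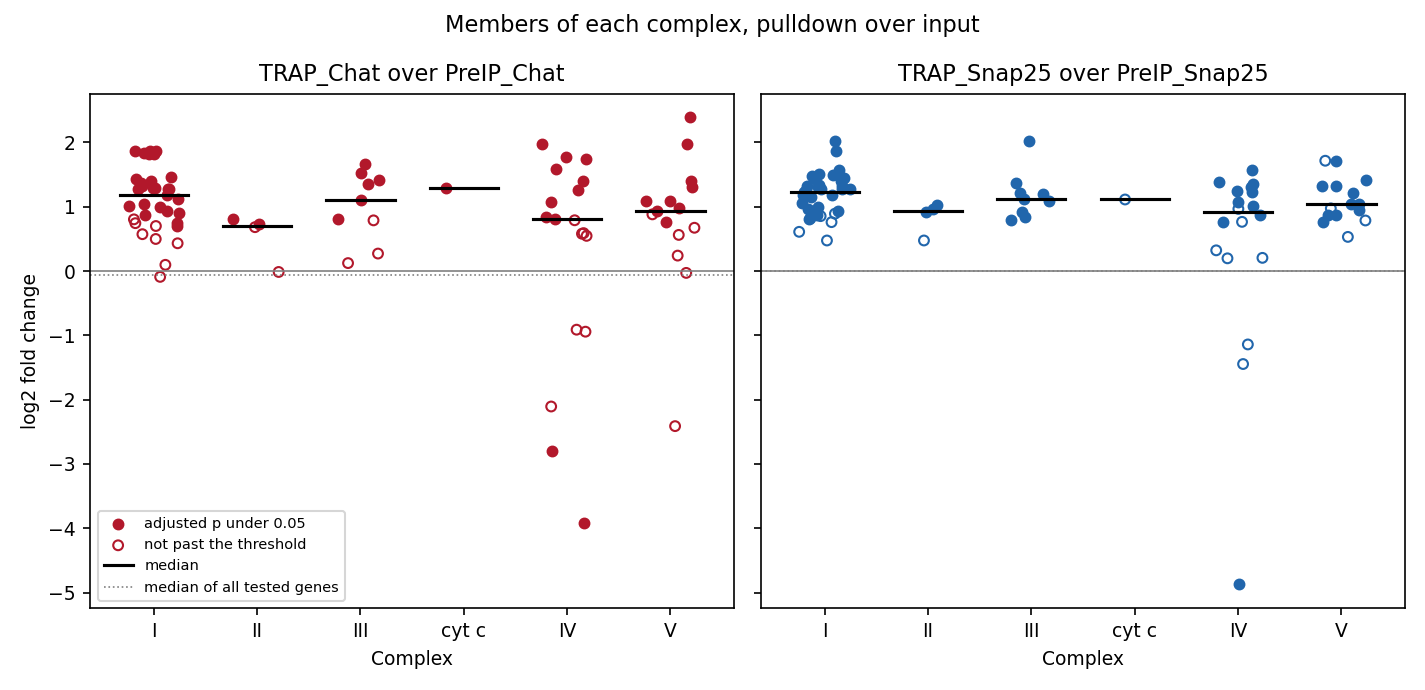
Log2 fold change of pulldown over input for each tested subunit, by complex, in the Chat line (left) and the Snap25 line (right). Filled points passed the adjusted p of 0.05 in edgeR's quasi-likelihood test, bars are medians, and the dotted line is the median of all tested genes; most points lie above it in every complex, and the lowest filled points are Cox8b and Ndufa4l2 of complex IV in the Chat line and Ndufa4l2 in the Snap25 line.

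The same 52 members rose in both lines. Ndufb11 and Cycs passed in the Chat line only, and 12 passed in the Snap25 line only, among them Ndufa11, Ndufs3, Ndufs8, Sdhd, Uqcrc1, Uqcrc2, Uqcrq, Cox5a, Atp5a1, Atp5c1 and Atp5sl. None of these 14 passed the test of the difference between the lines, so passing in 1 line does not set them apart. Another 16 passed in neither: Ndufa9, Ndufb9, Ndufs1, Ndufv1, Sdha, Cox4i1, Cox4i2, Cox6a2, Cox6b2, Cox7a1, Cox7c, Atp5b, Atp5d, Atp5g2, Atp5l and Atp5s. The count of members that rose in the Snap25 line depended on its inputs: it was 38 without PreIP_Snap25 1, 37 without PreIP_Snap25 2 and 73 without PreIP_Snap25 3, with medians of 0.94, 0.93 and 1.37.

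In complex I, which takes electrons from NADH, 27 of 35 subunits rose in the Chat pulldown (median log2 fold change 1.18) and 30 of 35 in the Snap25 pulldown (1.24), and none fell. Ndufa6, an accessory subunit of the LYR family, stood at 266, 176 and 115 CPM in TRAP_Chat and at 54.8, 41.7 and 56.1 CPM in PreIP_Chat. It stood at 262, 467 and 164 CPM in TRAP_Snap25 and at 47.0, 59.5 and 113 CPM in PreIP_Snap25. Every pulldown library was above every input of its line, and both pulldowns varied widely. The rise was 3.65-fold in the Chat line (log2 fold change 1.87 ± 0.40 SE, adjusted p = 0.00299) and 4.07-fold in the Snap25 line (2.02 ± 0.40, adjusted p = 0.00245). Ndufa2, an accessory subunit of the peripheral arm, stood at 519.6, 428 and 249 CPM in TRAP_Chat, against 103, 114 and 111 CPM in PreIP_Chat, a 3.65-fold rise (adjusted p = 0.000579). It rose 2.50-fold in the Snap25 line (adjusted p = 0.00667). Ndufb5, an accessory subunit of the membrane arm, stood at 465, 715 and 414 CPM in TRAP_Snap25, against 104, 124 and 209.7 CPM in PreIP_Snap25. It rose 3.64-fold there (adjusted p = 0.000478) and 3.54-fold in the Chat line (adjusted p = 0.000358).

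The nuclear core subunits of complex I hold most of its flavin and iron-sulfur chemistry and are conserved from bacteria. Of 7 such subunits 2 rose in the Chat line (median log2 fold change 0.70) and 5 in the Snap25 line (0.94), while 25 of 28 accessory subunits rose in each line (medians 1.28 and 1.26). Over all tested genes 12.6% rose in the Chat line and 9.69% in the Snap25 line. By this count, 2 of 7 does not set the core subunits apart from other genes in the Chat line. The difference between the 2 classes was not tested. Ndufs7, which carries the last cluster before the quinone, rose in both lines. It stood at 350.3, 284 and 241 CPM in TRAP_Chat against 128, 124 and 107 CPM in PreIP_Chat (1.29 ± 0.26 SE, adjusted p = 0.00228). Its Snap25 values were 230.2, 363 and 355 CPM in TRAP_Snap25 against 103, 84.7 and 152 CPM in PreIP_Snap25 (1.48 ± 0.26, adjusted p = 0.00132). Ndufv1, the subunit that binds NADH and the flavin, stood at 122, 138 and 152 CPM in TRAP_Chat and 148, 145 and 145 CPM in PreIP_Chat, which overlapped (log2 fold change -0.09 ± 0.33 SE, adjusted p = 0.864). In the Snap25 line its values were 147, 197 and 404 CPM in TRAP_Snap25 and 129.7, 87.7 and 185 CPM in PreIP_Snap25 (0.89 ± 0.33, adjusted p = 0.0598), with TRAP_Snap25 3 far above the others. Ndufs1, the largest nuclear subunit of complex I, stood at 63.7, 86.4 and 63.9 CPM in TRAP_Chat and 44.6, 58.5 and 55.3 CPM in PreIP_Chat, and at 95.8, 87.5 and 77.0 CPM in TRAP_Snap25 and 52.2, 58.8 and 76.2 CPM in PreIP_Snap25. Its pulldowns lay above the inputs in both lines by little, and neither difference passed the threshold (adjusted p = 0.173 and 0.148). Ndufv1 passed in the Snap25 line in 5 of 14 alternatives (adjusted p 0.0137 to 0.366 over all of them), among them DESeq2 and the fit without PreIP_Snap25 3.

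Complex II, succinate dehydrogenase, is the one complex with no subunit from the mitochondrial genome. Of its 4 genes 2 rose in the Chat line (median log2 fold change 0.71) and 3 in the Snap25 line (0.94). Sdha, the flavoprotein that oxidises succinate, stood at 475, 401 and 396 CPM in TRAP_Chat, against 454, 378 and 452 CPM in PreIP_Chat. Its Snap25 values were 429, 560.3 and 666 CPM in TRAP_Snap25, against 349, 370.3 and 470.3 CPM in PreIP_Snap25. The groups overlapped in both lines (-0.01 ± 0.23 SE, adjusted p = 0.971, and 0.48 ± 0.23, adjusted p = 0.146). Sdhb, the iron-sulfur subunit, stood at 243, 255 and 167 CPM in TRAP_Chat, against 125, 114 and 141 CPM in PreIP_Chat, and rose 1.75-fold (adjusted p = 0.0383); in the Snap25 line it rose 2.05-fold (adjusted p = 0.0137). Of the membrane anchors, Sdhc rose 1.66-fold in the Chat line (adjusted p = 0.0251) and 1.88-fold in the Snap25 line (adjusted p = 0.00989), and Sdhd rose in the Snap25 line (0.96 ± 0.29 SE, adjusted p = 0.0272) and did not pass in the Chat line (0.68 ± 0.29, adjusted p = 0.0939). In the Chat line the call was lost for Sdhb without TRAP_Chat 1 or 2 or PreIP_Chat 1, 2 or 3 (adjusted p 0.0727 to 0.136) and for Sdhc without TRAP_Chat 1 or 2 or PreIP_Chat 2 or 3 (adjusted p 0.0568 to 0.108). The Snap25 calls were lost for Sdhb without TRAP_Snap25 2 or PreIP_Snap25 1 or 2 (adjusted p 0.0714 to 0.0761) and for Sdhd without TRAP_Snap25 3 or PreIP_Snap25 1 or 2 (adjusted p 0.103 to 0.129). Sdhd passed in the Chat line in 2 of 14 alternatives (lowest adjusted p = 0.019).

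In complex III, which passes electrons from ubiquinol to cytochrome c, 6 of 9 subunits rose in the Chat line (median 1.11) and 9 of 9 in the Snap25 line (1.13). Uqcrh, the acidic hinge subunit at the cytochrome c1 head, stood at 891, 1004 and 561 CPM in TRAP_Chat, against 315, 267 and 272 CPM in PreIP_Chat. It stood at 881, 1126 and 676 CPM in TRAP_Snap25, against 289, 369 and 502 CPM in PreIP_Snap25. No pulldown library overlapped with an input of its line; Uqcrh rose 2.88-fold (1.52 ± 0.28 SE, adjusted p = 0.00117) and 2.31-fold (1.21 ± 0.28, adjusted p = 0.00635). Uqcrb, a small subunit near the quinone pocket, had the largest rise of the complex in both lines, 3.18-fold in the Chat line (adjusted p = 0.00300) and 4.08-fold in the Snap25 line (adjusted p = 0.00124). Its counts are uncertain, since 25.5% of the 50-base stretches of its transcripts also occur in other annotated genes (5 genes, of which 4 are pseudogenes). The same limit holds for other members, among which this share reached 41.6% (Atp5o). It was 22.11% for Cox7c, 17.65% for Uqcrc2, 13.83% for Cox7a2l, 11.16% for Ndufb5, 11.1% for Atp5g1 and 9.989% for Atp5l. The catalytic subunits rose in both lines: Uqcrfs1, the Rieske iron-sulfur protein, 2.16-fold and 2.60-fold (adjusted p = 0.00353 and 0.00129), and Cyc1, cytochrome c1, 1.76-fold and 2.14-fold (adjusted p = 0.0225 and 0.00574). The large core proteins Uqcrc1 and Uqcrc2, which have no redox centre, passed in the Snap25 line alone. Uqcrc1 stood at 129, 223 and 120.1 CPM in TRAP_Chat and 156, 150.1 and 126 CPM in PreIP_Chat (log2 fold change 0.12 ± 0.29 SE, adjusted p = 0.784), and at 176, 204 and 324 CPM in TRAP_Snap25 and 135, 97.2 and 160.1 CPM in PreIP_Snap25 (0.84 ± 0.29, adjusted p = 0.0464). The Chat libraries overlapped and the Snap25 libraries did not. Uqcrc2 had 0.27 ± 0.24 in the Chat line (adjusted p = 0.421) and 0.79 ± 0.24 in the Snap25 line (adjusted p = 0.0255). For both genes the test of the difference between the lines did not pass (adjusted p = 0.550 and 0.625). Calls were lost for Cyc1 without TRAP_Chat 2 or 3 or PreIP_Chat 1, 2 or 3 (adjusted p 0.0525 to 0.0907) in the Chat line, and for Uqcrc1 without TRAP_Snap25 2 or 3 or PreIP_Snap25 1 or 2 (adjusted p 0.0613 to 0.195) and Uqcrc2 without TRAP_Snap25 1 or 2 or PreIP_Snap25 1 or 2 (adjusted p 0.0601 to 0.122) in the Snap25 line.

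Cycs, the mobile cytochrome c of somatic cells, was low, at 7.85, 4.00 and 11.6 CPM in TRAP_Chat, against 2.93, 3.10 and 3.60 CPM in PreIP_Chat, and 11.8, 6.75 and 6.20 CPM in TRAP_Snap25, against 3.68, 2.85 and 4.89 CPM in PreIP_Snap25. It lay above the inputs in every pulldown and passed in the Chat line (1.29 ± 0.45 SE, adjusted p = 0.0448) and not in the Snap25 line (1.11 ± 0.45, adjusted p = 0.0877). The Chat call was lost in 10 of 14 alternatives, with adjusted p from 0.015 to 0.199 over all of them. Among libraries left out, it was lost for Cycs without TRAP_Chat 1 or 3 or PreIP_Chat 1, 2 or 3 (adjusted p 0.069 to 0.199). Of the 50-base stretches of Cycs 26.2% occur in other genes, so its level is uncertain.

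**Figure D2:**
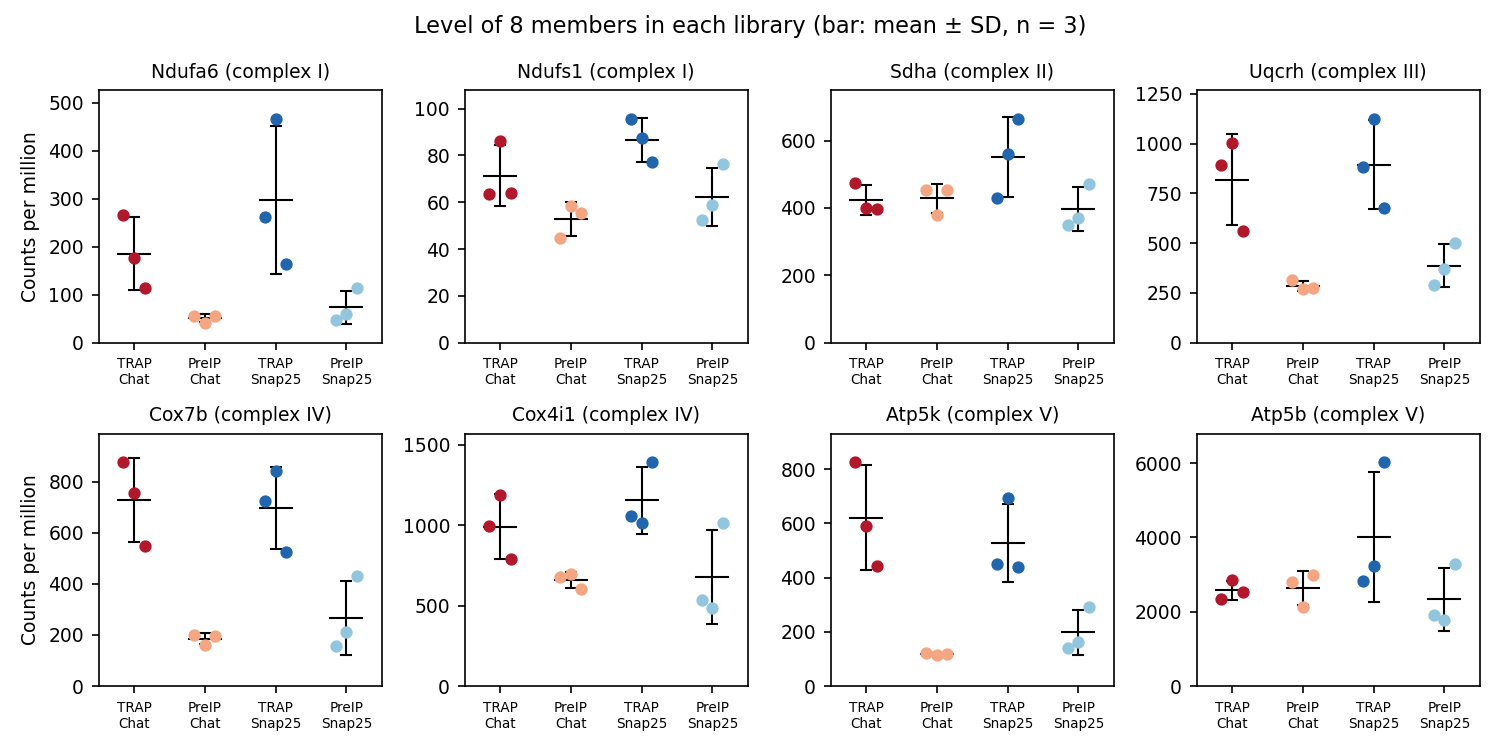
Level of 8 subunits in CPM for each library (points), with the mean and SD over 3 libraries (bars), pulldown left of input in each line. Ndufa6, Uqcrh, Cox7b and Atp5k lie higher in the pulldowns without overlap, while Sdha and Atp5b overlap in both lines and Cox4i1 in the Snap25 line; Ndufs1 differs by little.

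Complex IV, cytochrome c oxidase, passes electrons to oxygen. Of its 20 genes 18 were tested; 9 rose and 2 fell in the Chat line (median log2 fold change 0.80), and 10 rose and 1 fell in the Snap25 line (0.92). The members that fell were Cox8b and Ndufa4l2, both from a set of 8 genes, Ndufa4l2 and the isoforms of muscle, lung or testis. Of these 8 genes 6 were tested and 0 rose in either line. Over all tested genes 12.6% rose in the Chat line and 9.69% in the Snap25 line, so 0 of 6 does not set them apart from other genes. Of the other 12 subunits 9 rose in the Chat line (1.17) and 10 in the Snap25 line (1.15). Cox7b, a small membrane subunit, stood at 877, 757 and 549.9 CPM in TRAP_Chat, against 201, 160.4 and 196 CPM in PreIP_Chat. Its Snap25 values were 724, 840.1 and 525 CPM in TRAP_Snap25, against 157, 211 and 430.4 CPM in PreIP_Snap25. The pulldowns lay above the inputs throughout; the rise was 3.92-fold in the Chat line (1.97 ± 0.33 SE, adjusted p = 0.000599) and 2.62-fold in the Snap25 line (1.39 ± 0.33, adjusted p = 0.00697). Cox6a1, the form of subunit 6a made outside muscle, stood at 1115, 1142 and 939.6 CPM in TRAP_Chat, against 465, 399 and 349 CPM in PreIP_Chat (2.64-fold, adjusted p = 0.00256), and at 881, 1104 and 1616 CPM in TRAP_Snap25, against 427, 336 and 686 CPM in PreIP_Snap25 (2.48-fold, adjusted p = 0.00493). Cox7a2, Cox8a, Cox6b1 and Ndufa4, a protein first assigned to complex I and now to complex IV, likewise rose in both lines, Cox7a2 3.44-fold, Cox8a 2.40-fold, Cox6b1 1.79-fold and Ndufa4 3.0-fold in the Chat line, and Cox7a2 2.38-fold, Cox8a 2.02-fold, Cox6b1 1.83-fold and Ndufa4 2.35-fold in the Snap25 line. Cox7a2l, which joins complexes III and IV, rose 1.76-fold (adjusted p = 0.0193) and 1.7-fold (adjusted p = 0.0313). Cox4i1, the usual form of the largest nuclear subunit, did not pass in either line: 997, 1188 and 789 CPM in TRAP_Chat, against 676, 698 and 601 CPM in PreIP_Chat (adjusted p = 0.133), and 1055, 1015 and 1392 CPM in TRAP_Snap25, against 537, 484 and 1016 CPM in PreIP_Snap25 (adjusted p = 0.0623). In the Chat line calls were lost for Cox6b1 without TRAP_Chat 2 or PreIP_Chat 2 or 3 (adjusted p 0.0617 to 0.0846) and Cox7a2l without TRAP_Chat 1 or PreIP_Chat 2 or 3 (adjusted p 0.0649 to 0.0896). Of the Snap25 calls, those lost were Cox6b1 without TRAP_Snap25 1 or PreIP_Snap25 1 or 2 (adjusted p 0.076 to 0.0992), Cox7a2 without PreIP_Snap25 1 or 2 (adjusted p 0.0693 to 0.0706) and Cox7a2l without TRAP_Snap25 2 or PreIP_Snap25 1 or 2 (adjusted p 0.0783 to 0.168). Also lost were Cox8a without TRAP_Snap25 2 or PreIP_Snap25 1 or 2 (adjusted p 0.0557 to 0.113) and Ndufa4 without TRAP_Snap25 2 or PreIP_Snap25 1 or 2 (adjusted p 0.0579 to 0.0742). Cox4i1 passed in 1 of 14 alternatives in the Chat line (adjusted p 0.0472 to 0.307) and in 5 of 14 in the Snap25 line (0.00798 to 0.247), among these DESeq2 and the fit without PreIP_Snap25 3.

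Cox5a, a matrix-side subunit, stood at 143, 156 and 171 CPM in TRAP_Chat, against 115, 96.6 and 103 CPM in PreIP_Chat. Its Snap25 values were 254, 223 and 338 CPM in TRAP_Snap25, against 78.5, 67.9 and 129 CPM in PreIP_Snap25. Pulldown and input overlapped in neither line, and the gap was wider in the Snap25 line. It passed there (1.57 ± 0.26 SE, adjusted p = 0.000775) and not in the Chat line (0.58 ± 0.25, adjusted p = 0.0985), and the difference between the lines was -0.99 ± 0.36 with an adjusted p of 0.259. Cox5a passed in the Chat line in 2 of 14 alternatives (lowest adjusted p = 0.0259).

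Several subunits of complex IV have a second gene used in muscle, lung or testis. Each of these was low in all 12 libraries. Cox8b, the form of subunit 8 in heart and skeletal muscle, fell in the Chat pulldown: 0.309, 0 and 0.0521 CPM in TRAP_Chat, against 1.22, 3.49 and 1.16 CPM in PreIP_Chat, which are 6 reads against 105. The ratio of the summed reads over library size was 0.0627 (95% exact interval 0.0225 to 0.141, counting error only), and the fitted log2 fold change was -3.92 ± 0.99 SE (adjusted p = 0.00838). The Snap25 groups overlapped, with 1.98, 2.57 and 1.32 CPM in TRAP_Snap25 and 1.76, 0.583 and 2.80 CPM in PreIP_Snap25 (0.20 ± 0.81, adjusted p = 0.894). The summed level of 9 skeletal muscle markers was highest in PreIP_Chat 2, at 367 CPM, against 3.29 to 61.0 CPM in the other 11 libraries. That input also held the most Cox8b and the most Cox6a2. Among the pulldowns the order differed: TRAP_Chat 2 held the most of these markers, 60.9 CPM, and 0 Cox8b. TRAP_Snap25 2 held the least, 3.29 CPM, and 2.57 CPM of Cox8b. The part of muscle RNA in the fall of Cox8b was not tested. Without PreIP_Chat 2 the log2 fold change of Cox8b was -3.21 with an adjusted p of 0.0495. Cox6a2, the muscle form of subunit 6a, stood at 1.30, 0.529 and 0.104 CPM in TRAP_Chat and 0.488, 6.26 and 1.59 CPM in PreIP_Chat, and the groups overlapped (adjusted p = 0.187).

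Ndufa4l2, a relative of Ndufa4 that is induced in low oxygen, fell in both pulldowns. It stood at 0.494, 0 and 0.208 CPM in TRAP_Chat, against 1.16, 2.88 and 1.11 CPM in PreIP_Chat. Its Snap25 values were 0.0735, 0 and 0 CPM in TRAP_Snap25, against 1.37, 0.388 and 1.04 CPM in PreIP_Snap25. No pulldown library reached an input of its line. The summed reads were 12 against 92 in the Chat line, a ratio over library size of 0.143 (95% exact interval 0.0713 to 0.262), and 1 against 47 in the Snap25 line, a ratio of 0.0252 (0.000625 to 0.147). The adjusted p was 0.0498 in the Chat line, lost in 7 of 14 alternatives (0.0234 to 0.213), among them leaving out each library but TRAP_Chat 1. In the Snap25 line it was 0.0158, lost in 2 of the 13 alternatives that tested the gene (0.0591 without PreIP_Snap25 1, 0.0636 without TRAP_Snap25 2). The fit of only the groups compared left Ndufa4l2 out of the Snap25 test, so the call is absent there too. Cox4i2, the lung form of subunit 4, Cox6b2, the testis form of 6b, and Cox7a1, the muscle form of 7a, passed in neither line, with log2 fold changes of -0.91, -0.94 and 0.55 in the Chat line and 0.21, -1.14 and 0.32 in the Snap25 line. Cox7b2 was at 0.605 CPM or less in every library and Cox8c, of testis, had 0 reads in 3 groups and 1 read in PreIP_Snap25; 3 reads correspond to 0.156 to 0.305 CPM, depending on the library.

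**Figure D3:**
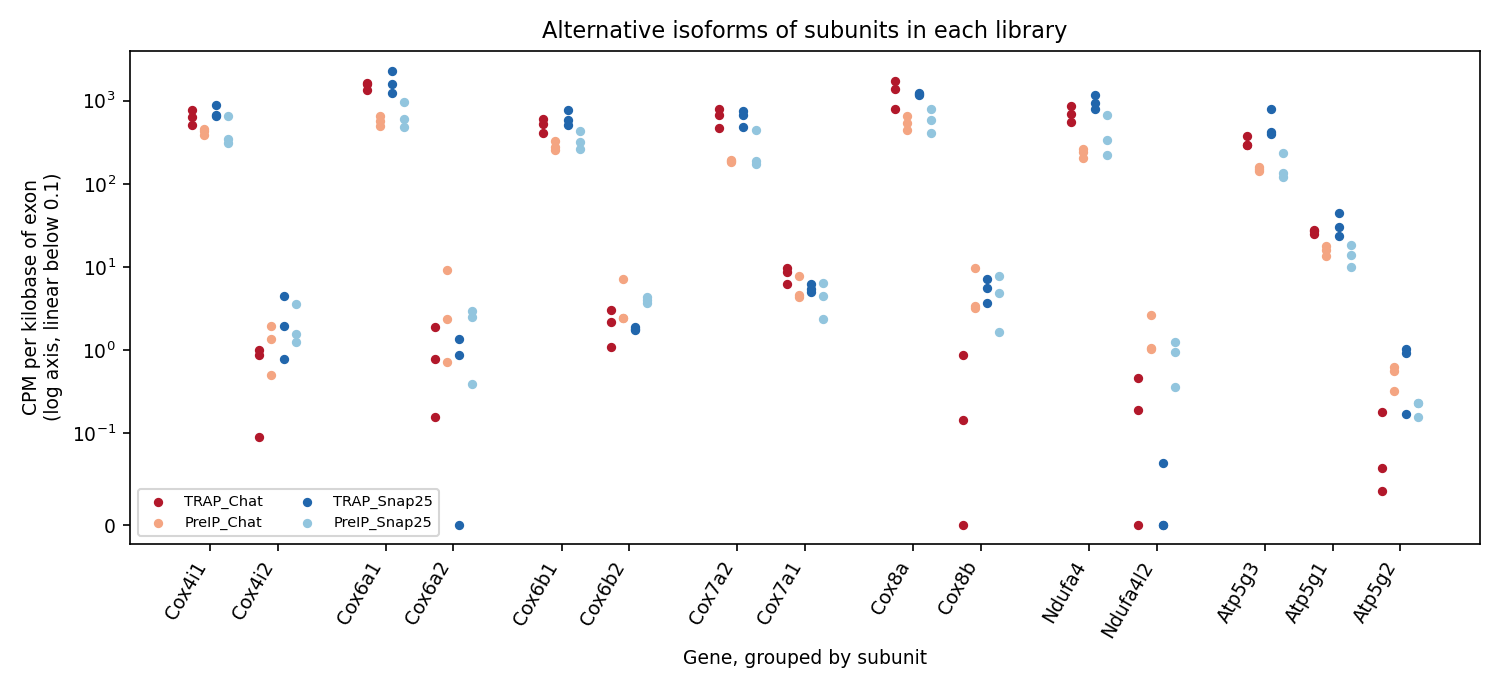
Level per kilobase of exon (log axis, linear below 0.1) of subunits with alternative genes, in each of the 12 libraries, pulldown left of input in each line. The 6 usual forms plotted for complex IV lie between 173 and 2301 CPM per kilobase and the muscle, lung, testis and low-oxygen forms at 9.69 or less; Cox8b and Ndufa4l2 reach 0 in pulldowns, and Atp5g2 lies at 1.01 or less.

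In complex V, ATP synthase, 9 of 15 subunits rose in the Chat line (median log2 fold change 0.94) and 11 of 15 in the Snap25 line (1.04), and none fell. Atp5k, subunit e at the contact between paired enzymes, had the largest rise of all members in the Chat line: 826, 592 and 443 CPM in TRAP_Chat, against 122, 114 and 117 CPM in PreIP_Chat, or 5.27-fold (2.40 ± 0.31 SE, adjusted p = 8.86e-05). It stood at 452, 693 and 439 CPM in TRAP_Snap25, against 139.9, 162 and 292 CPM in PreIP_Snap25, or 2.67-fold (1.42 ± 0.30, adjusted p = 0.00424). The libraries did not overlap in either line. Atp5j2, subunit f of the membrane part, stood at 613, 614 and 284 CPM in TRAP_Chat, against 138, 122 and 122 CPM in PreIP_Chat (3.95-fold, adjusted p = 0.00160), and rose 2.50-fold in the Snap25 line (adjusted p = 0.0195), where PreIP_Snap25 3, at 342 CPM, lay above its lowest pulldown. That call was lost for Atp5j2 without TRAP_Snap25 2 or PreIP_Snap25 1 or 2 (adjusted p 0.0814 to 0.098).

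The F1 part of ATP synthase, which includes the catalytic head, is made of the alpha to epsilon subunits. Of these 5 subunits 1 rose in the Chat line (median log2 fold change 0.67) and 3 in the Snap25 line (0.88). Of the 10 other subunits 8 rose in each line (medians 1.04 and 1.27). Over all tested genes 12.6% rose in the Chat line and 9.69% in the Snap25 line. By this count, 1 of 5 does not set the F1 subunits apart from other genes in the Chat line. The difference between these classes was not tested. Atp5b, the catalytic beta subunit, stood at 2345, 2861 and 2535 CPM in TRAP_Chat, against 2796, 2116 and 2982 CPM in PreIP_Chat, and at 2818, 3224 and 6032 CPM in TRAP_Snap25, against 1917, 1783 and 3297 CPM in PreIP_Snap25. Pulldown and input overlapped in both lines (-0.03 ± 0.32 SE, adjusted p = 0.958, and 0.79 ± 0.32, adjusted p = 0.0859), and TRAP_Snap25 3 held about as much as both other pulldowns together. Atp5a1, the alpha subunit, stood at 1129.8, 1164 and 957 CPM in TRAP_Chat, against 926, 895 and 929.7 CPM in PreIP_Chat (0.24 ± 0.24, adjusted p = 0.484), and at 1183, 1719.9 and 1923 CPM in TRAP_Snap25, against 961, 790.3 and 1107 CPM in PreIP_Snap25 (0.76 ± 0.24, adjusted p = 0.0318). The pulldowns were above the inputs in both lines, by a small margin in the Chat line. Atp5c1, the gamma subunit that turns inside the head, did not pass in the Chat line (0.67 ± 0.29, adjusted p = 0.0924) and rose 1.84-fold in the Snap25 line (adjusted p = 0.0381). The Snap25 calls were lost for Atp5a1 without TRAP_Snap25 2 or 3 or PreIP_Snap25 1 or 2 (adjusted p 0.0726 to 0.134) and Atp5c1 without TRAP_Snap25 2 or 3 or PreIP_Snap25 1 or 2 (adjusted p 0.0526 to 0.17). Atp5b passed in the Snap25 line in 5 of 14 alternatives (adjusted p 0.0307 to 0.364), among them DESeq2 and the fit without PreIP_Snap25 3, and Atp5c1 in the Chat line in 2 of 14 (lowest adjusted p = 0.0298).

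The c subunit, which forms the proton-driven ring, is encoded by 3 genes with the same mature protein. Per kilobase of exon Atp5g3 was the highest of them in every group; it stood at 822, 642 and 636 CPM in TRAP_Chat, against 329, 309 and 348 CPM in PreIP_Chat, and 876, 1729 and 915 CPM in TRAP_Snap25, against 262, 296 and 517 CPM in PreIP_Snap25. It rose 2.13-fold (adjusted p = 0.0140) and 3.27-fold (adjusted p = 0.00138) without overlap. Atp5g1 rose 1.7-fold in the Chat line (adjusted p = 0.0436) and 2.32-fold in the Snap25 line (adjusted p = 0.00507). In the Chat line the call was lost for Atp5g1 without TRAP_Chat 1, 2 or 3 or PreIP_Chat 1, 2 or 3 (adjusted p 0.0632 to 0.16) and Atp5g3 without PreIP_Chat 2 (adjusted p = 0.0593). Atp5g2 was listed at 0.0618, 0.302 and 0.104 CPM in TRAP_Chat, against 1.04, 0.941 and 0.529 CPM in PreIP_Chat (adjusted p = 0.0675), and at 1.69, 0.279 and 1.53 CPM in TRAP_Snap25, against 0.385, 0.388 and 0.261 CPM in PreIP_Snap25 (adjusted p = 0.175). Of its 50-base stretches 38.4% occur in other genes, so its low count may be incomplete. Of the Atp5 names that are not subunits, Atp5s, a coupling factor, passed in neither line, and Atp5sl, a factor of complex I assembly, rose in the Snap25 line (2.14-fold, adjusted p = 0.00802) and not in the Chat line (0.06 ± 0.26, adjusted p = 0.894); the Snap25 call was lost for Atp5sl without PreIP_Snap25 2 (adjusted p = 0.0505).

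Levels between genes were compared per kilobase of exon. Cox6a1 was the highest member in both pulldowns, at 1518 ± 157 CPM per kilobase in TRAP_Chat and 1710 ± 537 in TRAP_Snap25 (SD, n = 3), and in PreIP_Snap25 (688 ± 258). In PreIP_Chat Atp5b came first (621 ± 108) and Cox6a1 second (575 ± 82.9), which do not differ beyond their spread. In TRAP_Chat Cox6a1 was followed by Cox8a (1311 ± 479) and in TRAP_Snap25 by Uqcr10 (1218 ± 37.1), and neither pair is separated by more than the SDs of its 2 genes together. Atp5b stood 10th in TRAP_Chat (609 ± 61.6) and 5th in TRAP_Snap25 (950 ± 413). Subunits of one complex are joined in fixed numbers, yet their RNA levels per kilobase ranged widely: in TRAP_Chat Ndufs1 stood at 8.82 ± 1.61 and Ndufa2 at 697 ± 241. Exon lengths of annotated genes can include parts that these cells do not use, which lowers such a value.

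The change of the members varied with the length of their coding sequence. The tested members have a median coding length of 417 bases, against 1419 bases for the other tested coding genes. In the Chat line the median log2 fold change was 1.39 for the 22 members up to 300 bases, 1.03 for the 40 members over 300 and up to 600, 0.81 for the 13 over 600 and up to 1200 and 0.12 for the 9 above 1200. The other coding genes in the same length classes had medians of 0.67, 0.48, 0.12 and -0.26, and 33.8%, 29.3%, 15.9% and 8.05% of them rose. In the Snap25 line the members had 1.17, 1.17, 1.10 and 0.79, and the other genes 0.47, 0.44, 0.20 and -0.19. The members' median lay above that of the other genes in every class, and the rank correlation with length was further from 0 for members in the Chat line (Spearman rho -0.46 over 84 members) than in the Snap25 line (-0.20); rho over the 14097 other coding genes was -0.24 and -0.27. These are descriptions across genes of the same libraries. With a correction for exonic length in the fit, 48 members rose and 3 fell in the Chat line, and 51 rose and 1 fell in the Snap25 line.

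**Figure D4:**
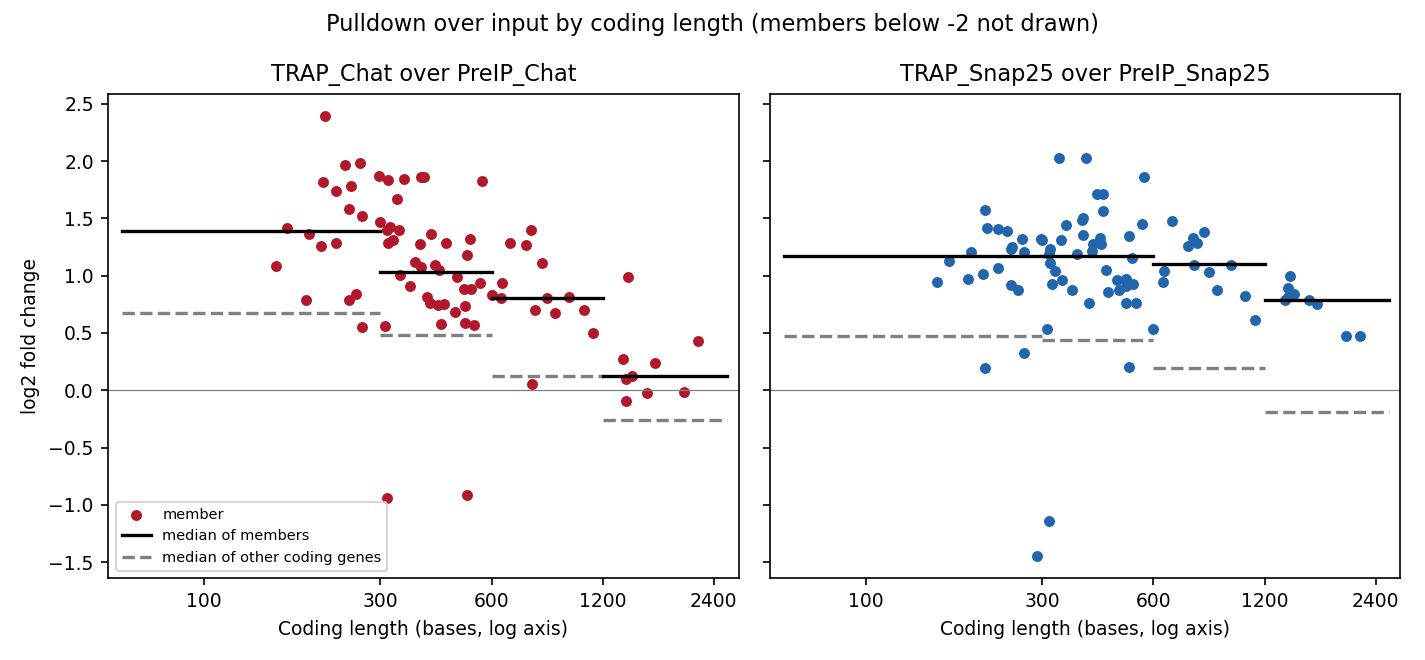
Log2 fold change of pulldown over input against coding length (log axis) for each tested member, in the Chat line (left) and the Snap25 line (right); members below -2 are not drawn. Black bars are medians of members and grey dashed bars medians of the other coding genes in the same length class; the black bars step down with length in the Chat line, where the shortest class has 1.39 and the longest 0.12, and lie above the grey ones throughout.

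Other genes of the pathway also rose in the pulldowns; those named here were chosen after their values were seen. Over all tested genes 12.6% rose and 14.3% fell in the Chat line, and 9.69% rose and 12.7% fell in the Snap25 line. Of 47 tested assembly factors of complexes I to V, 17 rose and 1 fell in the Chat line and 22 rose in the Snap25 line. The single fall is below the share of all tested genes that fell. Ndufaf2, which binds a late intermediate of complex I, rose with a log2 fold change of 1.6 ± 0.26 SE in the Chat line (adjusted p = 0.000496) and 1.12 in the Snap25 line (adjusted p = 0.00627), and Cox14, needed for the translation of a mitochondrial complex IV subunit, by 1.73 (adjusted p = 0.00145) and 1.6 (adjusted p = 0.00322). The assembly factor that fell in the Chat line was Cox11, which delivers copper (-1.49 ± 0.51, adjusted p = 0.0383). Of 25 genes of mitochondrial protein import 11 rose in the Chat line and 13 in the Snap25 line, Timm10b, of a chaperone complex in the intermembrane space, among them (2.19 and 1.46, adjusted p = 0.00016 and 0.00342). All 5 partners outside the naming rule rose in the Chat line and 4 in the Snap25 line; Atpif1, the inhibitor of ATP synthase, had 2.06 and 1.56 (adjusted p = 0.000224 and 0.00204). Of the 3 carriers of adenine nucleotides and phosphate 2 rose in the Chat line and 3 in the Snap25 line.

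The subunits encoded in the mitochondrial genome, which cytosolic ribosomes do not translate, went the other way. Of 13 such genes 8 were tested; 6 fell in the Chat line (median log2 fold change -3.06) and 8 in the Snap25 line (-4.43). Their summed level was 2319.8, 175 and 190.5 CPM in TRAP_Chat, against 6399, 4912 and 4488 CPM in PreIP_Chat, and 336, 133 and 772 CPM in TRAP_Snap25, against 5660.4, 6499.6 and 11044 CPM in PreIP_Snap25. The first Chat pulldown held more than its partners. Among 12 regulators of nuclear mitochondrial genes 1 rose and 3 fell in each line, where 12.6% of all tested genes rose and 14.3% fell in the Chat line and 9.69% and 12.7% in the Snap25 line, so that the single rise is near the share of all genes. Esrra, the estrogen-related receptor that works with Ppargc1a, rose (1.07 and 1.19, adjusted p = 0.026 and 0.0194), and Gabpb2, a partner of Gabpa, fell in both (-1.61 and -2.48, adjusted p = 0.021 and 0.00287). The others that fell were Nrf1 (-1.87, adjusted p = 0.00285) and Pprc1 (-0.96, adjusted p = 0.0477) in the Chat line, and Gabpa (-1.32, adjusted p = 0.0136) and Yy1 (-0.93, adjusted p = 0.032) in the Snap25 line. These are levels of the regulators' own RNA. Members with the NRF1 letters in the window shown above had a median log2 fold change of 1.09 in the Chat line and 1.31 in the Snap25 line, and those without had 1.08 and 1.12; for the GABPA letters the medians were 1.17 and 1.04 with and 1.06 and 1.20 without. In the Chat line 11 of the 17 members with the NRF1 letters rose, against 37 of the 49 tested members without, and in the Snap25 line 15 of 17, against 38 of 49. For the GABPA letters 12 of 16 rose in the Chat line, against 36 of 50 without, and 15 of 16 in the Snap25 line, against 38 of 50. The differences in these counts were not tested.

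Set against each other, the pulldowns gave few calls. Of 84 members 0 were higher and 2 were lower in TRAP_Chat than in TRAP_Snap25, where 3.97% of all tested genes were higher and 2.77% lower; 16 members had an unadjusted p under 0.05, against 21.7% of all tested genes. The median log2 fold change was -0.28 over the members and 0.01 over all genes, and 72 of 84 members were on the negative side. All TRAP_Chat libraries lay below all TRAP_Snap25 libraries for 18 members, against 9.47% of all tested genes, and above them for 0, against 10.3%. The members that passed were Cox8b (-3.92 ± 0.99 SE, adjusted p = 0.0239), with 6 reads in TRAP_Chat and 86 in TRAP_Snap25, and Atp5sl, at 21.2, 35.4 and 22.2 CPM in TRAP_Chat and 52.0, 49.9 and 45.5 CPM in TRAP_Snap25 (-0.90 ± 0.26, adjusted p = 0.0492). These calls were lost for Cox8b without TRAP_Chat 2 or 3 or TRAP_Snap25 2 (adjusted p 0.0583 to 0.0779) and for Atp5sl without TRAP_Chat 1 or 3 or TRAP_Snap25 1 or 2 (adjusted p 0.102 to 0.15). Some large core subunits lay further from 0 than the members' median, at -0.86 for Ndufv1, -0.58 for Uqcrc1, -0.57 for Atp5a1 and -0.64 for Atp5b. None of these passed the threshold (adjusted p = 0.130, 0.258, 0.171 and 0.251). The trait was not particular to large subunits. Ndufs1, the largest nuclear subunit of complex I, lay at the median (-0.28). Smaller subunits lay as far from 0, such as Uqcrb (-0.80), Cox5a (-0.79) and Ndufa6 (-0.68), though others such as Atp5k (0.23) lay above 0. The median of the members, relative to the mean of the Snap25 pulldown, was -0.16, -0.20 and -0.62 in the 3 TRAP_Chat libraries, so TRAP_Chat 3 lay lowest; without it the median log2 fold change was -0.15, with 0 members past the threshold.

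**Figure D5:**
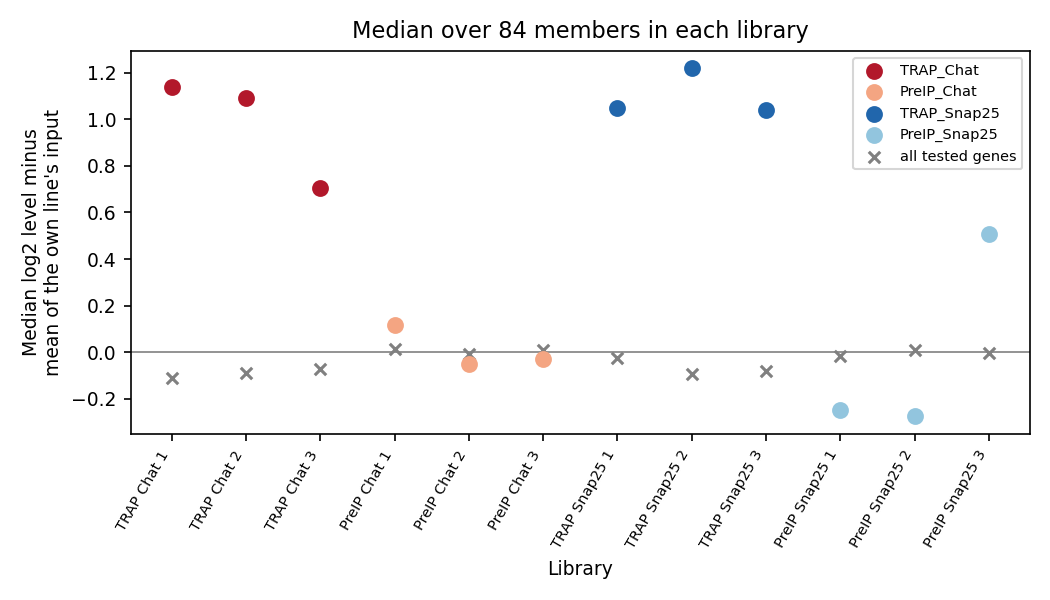
Median over 84 members of the log2 level minus the mean of the own line's input, for each library (coloured points), with the same median over all tested genes (crosses). The pulldowns lie between 0.70 and 1.22, TRAP_Chat 3 lowest, and PreIP_Snap25 3 lies at 0.51 while the other inputs lie between -0.28 and 0.12.

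The change from input to pulldown was then compared between the lines. None of the 84 members passed this test in edgeR, 6 had an unadjusted p under 0.05, against 11.5% of all tested genes, and DESeq2 called 1, Cox8b; over all tested genes 0.604% were higher and 0.44% lower in the Chat line. The median difference, Chat line minus Snap25 line, was -0.08; it was 0.04 without TRAP_Chat 3, 0.06 without PreIP_Snap25 1, 0.03 without PreIP_Snap25 2 and -0.33 without PreIP_Snap25 3, so that its sign was set by single libraries. Of those 6 only Atp5k was positive (0.98 ± 0.42 SE, adjusted p = 0.368), and Ndufv1, Cox5a, Cox8b, Atp5g2 and Atp5sl were negative, Ndufv1 for example with -0.98 ± 0.46 (adjusted p = 0.426). Across the members this difference fell with coding length (Spearman rho -0.55 over 84 members, against -0.02 over the other coding genes): the median was 0.25 for members up to 300 bases and -0.52 for those above 1200.

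The inputs of the lines, PreIP_Chat against PreIP_Snap25, gave 0 calls in edgeR among members and 0 among all tested genes; 8 members and 0.836% of all genes had an unadjusted p under 0.05, and DESeq2 called 1 gene of the whole table. The median log2 fold change of the members was -0.23, against 0.00 for all genes. All PreIP_Chat libraries lay above all PreIP_Snap25 libraries for 1 member and below them for 8, against 4.19% and 3.85% of all tested genes. PreIP_Snap25 3 lay 0.51 above the mean of its group in the median member, with 81 of 84 members above that mean, and without it the median between the inputs was 0.05. The comparisons of the pulldowns with each other and with the inputs share libraries, and their values are not independent.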

How the data were processed

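Spinal cord RNA of 12 libraries went through a Nugen Ovation V2 amplification and HiSeq2500 sequencing, per the labels' protocols. The authors deposited raw counts per gene; the submitters' processing notes name STAR and HTSeq. The sources used here give no version, build, annotation or strand setting. Of the 41736 deposited lines, 824 repeated an earlier gene ID and were dropped. Totals of 10149346 to 20521699 reads set the counting error. Counts were fitted in edgeR 4.0.16 (R 4.3.3) with TMM scaling, filterByExpr (minimum count 10), 1 mean for each of the 4 groups and the quasi-likelihood test, with Benjamini-Hochberg adjustment over all 15905 tested genes and a threshold of 0.05. Standard errors are the log2 fold change divided by the square root of F. The test was checked on simulated data. Exon and coding lengths and shared 50-base stretches came from GENCODE M21, promoter windows from RefSeq. Named members were core subunits, isoform sets and, in each complex and comparison, the 2 largest rises and falls past the threshold. The results of 1 named member are not reported here. Members and lists were chosen with earlier results of these data known. Alternatives used RLE scaling, DESeq2 1.42.0, limma 3.58.1 (voom), other filters, a fit of only the groups compared, a replicate block, an offset for exonic length, and each library left out. Exact intervals and 3-read floors cover counting error only, and amplified reads are not independent molecules.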

Additional observations from a re-analysis of the deposited data

Results flagged for a closer look

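Pseudogenes of ATP synthase subunits, which the choice of protein-coding genes leaves out, held reads in the pulldowns above the inputs of the same line and above the level of 3 reads. Atp5k-ps2 averaged 1.07 CPM in TRAP_Chat (1.67, 0.756 and 0.781 CPM in the 3 libraries, against 0.0611, 0.0554 and 0.106 CPM in PreIP_Chat). Atp5l-ps1 averaged 0.723 CPM in TRAP_Chat (1.3, 0.453 and 0.416 CPM, against 0.183, 0.166 and 0.317 CPM in PreIP_Chat). In TRAP_Snap25 it averaged 0.729 CPM (0.441, 1.34 and 0.407 CPM, against 0.055, 0.129 and 0.261 CPM in PreIP_Snap25). Atp5l-ps2 averaged 0.327 CPM in TRAP_Snap25 (0.294, 0.279 and 0.407 CPM, against 0.22, 0.129 and 0.0652 CPM in PreIP_Snap25). Those pulldown values are close to the level of 3 reads in the same libraries, 0.22, 0.167 and 0.305 CPM, so that difference rests on few reads. Their parent genes share sequence with them, and whether these reads came from the pseudogenes was not tested.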

How the results depend on the processing

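No call changed direction in any alternative; medians that changed sign with a library left out are given beside their comparison. The count of members that rose in the Chat line was 54, with 48 to 63 under other settings and 39 to 50 with 1 library left out; in the Snap25 line it was 64, with 48 to 71 and 37 to 73. Counts of members that fell are small and moved: in the Chat line 2 became 1 under RLE scaling and with the replicate block, and 1 to 2 with a library left out; in the Snap25 line 1 became 0 when only the groups compared were fitted, and 0 to 1 with a library left out. Between the pulldowns 2 lower members became 1 under RLE scaling, 4 in DESeq2, 0 when only the groups compared were fitted, 1 with the replicate block and 0 to 2 with a library left out. For the difference between the lines DESeq2 called 1 lower member in place of 0. The fit of only the groups compared cannot be made for that difference. Within a line, the pulldown and input of the same number share a suffix in the labels whose meaning is not given. Libraries of the same number in different lines do not share it. However, 1 suffix occurs in both lines, on libraries 2 of the Chat line and libraries 1 of the Snap25 line. Whether it marks a shared preparation across the lines was not tested. Deviations from group means correlated at 0.0601 to 0.127 between same-numbered pulldowns and inputs in the Chat line, where 3 of 3 matched best with their own number. In the Snap25 line they correlated at -0.0365 to 0.167, and 1 of 3 matched best with its own number. Correlations over 3 libraries per group cannot decide whether same-numbered libraries are pairs. The main fit had no block, so its p-values ignore any such pairing. With the replicate block 60 members rose in the Chat line and 71 in the Snap25 line. Of the named members, Sdhd, Cox5a and Atp5c1 then passed in the Chat line and Ndufv1, Cox4i1 and Atp5b in the Snap25 line. Cycs and Ndufa4l2 were lost in the Chat line. Between the pulldowns, and between the inputs, the block joined libraries of different lines by number alone. The labels give such libraries nothing in common, so the loss of Atp5sl between the pulldowns says nothing about pairing. Cox8b, Ndufa4l2, Atp5g2, Cox7b2 and Cox8c, at 3.49 CPM or less in every library, are limited by depth.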
